A study of Mus musculus with 4 samples.

Results

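The genes of major histocompatibility complex (MHC) class I presentation were examined in sciatic nerve of a mouse model of hereditary transthyretin (TTR) amyloidosis. They were the 9 genes H2-K1, H2-D1, B2m, Tap1, Tap2, Tapbp, Psmb8, Psmb9 and Nlrc5, found by symbol among the 50593 genes listed. Sciatic nerve RNA was sequenced from mice of strain 129S1/SvImJ at 6 months of age. Mice of both groups were heterozygous for a deletion of Hsf1, the gene of heat shock factor 1. HSF V30M mice additionally carried a human TTR V30M transgene and lacked the endogenous mouse Ttr gene, and HSF WT mice carried no transgene. The labels list 2 mice per group, whereas the methods give n = 4 for RNA sequencing and do not say whether this is the number per group. The promoter that drives the transgene is not stated in the sources used here. For each gene there was 1 FPKM value per group (fragments per kilobase of a transcript, corrected for library depth), pooled over its libraries, and no value per mouse. Consequently no difference has a replicate check, and no test between mice was made.

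MHC class I molecules display peptides from the inside of a cell on its surface, where CD8 T cells inspect them. Proteins are cut by the proteasome, whose immunoproteasome form contains Psmb8 and Psmb9, and the peptides are pumped by the Tap1-Tap2 transporter into the endoplasmic reticulum. There Tapbp (tapasin) bridges the transporter to a waiting heavy chain (H2-K1 or H2-D1) paired with beta-2 microglobulin (B2m), and the loaded complex travels to the surface. Nlrc5 is a nuclear transactivator of these genes, and interferons are known to raise the expression of most of them. In resting peripheral nerve, class I molecules are made by endothelium, immune cells and other resident cells.

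Libraries of the same group were 1.18-fold apart in depth in HSF V30M and 1.35-fold apart in HSF WT, and across groups the deeper libraries differed 1.23-fold, with HSF V30M ahead. These depths were read from the worth of 1 fragment in low values. The reading assumes 2 libraries per group, as the labels list, and returns 2 depths whatever their true number. Fragment numbers below are ranges over transcript lengths and libraries. Hsf1 had an FPKM of 7.94 in HSF V30M against 15.0 in HSF WT, a fold of 0.531 (95% interval for counting error 0.456 to 0.618). Both groups are described as heterozygous for the deletion, and the cause of this difference was not tested. Mouse Ttr, which should be null in HSF V30M, reached an FPKM of 6.10 where the label is HSF V30M. It was at 0 in the group labelled HSF WT, where 3 fragments, the limit taken for a count of 0, would have given 0.197. Reads of human and mouse origin cannot be told apart in this value, so it does not show the state of the mouse allele, which was not tested. Every direction below is therefore between the groups as labelled. The nerve label fits the defining genes of myelinating Schwann cells, all 9 of which were present in both groups.

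Promoter sequences of the class I genes are shown because the elements that these genes are known to share lie close to their start sites. RefSeq promoters (GRCm38.p6, 250 bases before to 50 after the start) were found for 7 of the 9 genes, and Tap2 and Nlrc5 had none in the table. The following stretches are written 5′ to 3′ on the strand of the gene. Capitals mark matches, on either strand, to the searched motifs GAAANNGAA and GAANNGAAA (interferon-stimulated response element), GGGNNTTCC and GGANTTTCC (kappaB), the X2 box core TGACGC, the box CCAAT, the TATA box as TATAAA, and the GC box GGGCGG.
H2-K1, chr17:34000348-34000547, minus strand, 200 bases up to the start: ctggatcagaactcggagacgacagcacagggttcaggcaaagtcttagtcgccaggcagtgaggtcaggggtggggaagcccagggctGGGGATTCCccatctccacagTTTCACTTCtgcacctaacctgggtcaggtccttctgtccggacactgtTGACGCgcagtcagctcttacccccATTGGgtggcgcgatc
H2-D1, chr17:35262923-35262952, plus strand, the stretch with the kappaB match: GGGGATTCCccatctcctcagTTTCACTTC
H2-D1, chr17:35262993-35263022, plus strand, the stretch with the X2 box match: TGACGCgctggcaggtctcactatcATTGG
B2m, chr2:122147487-122147685, plus strand: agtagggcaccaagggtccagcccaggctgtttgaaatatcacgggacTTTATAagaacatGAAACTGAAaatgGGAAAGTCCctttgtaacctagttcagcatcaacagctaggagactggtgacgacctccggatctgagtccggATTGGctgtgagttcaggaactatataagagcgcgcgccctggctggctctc
Tap1, chr17:34187368-34187397, plus strand, the GC box in the interval it shares with Psmb9: cagactgaggccCCGCCCcatcatcgcgca

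Both heavy chain promoters carried the same block, with the kappaB match GGGGATTCC, the response element match TTTCACTTC, the X2 box match TGACGC and the inverted CCAAT box in this order. The 300-base windows of H2-K1 and H2-D1 aligned over 228 columns with 90.4% identity, and the H2-D1 matches of this block lie 60 bases farther from the RefSeq start used. For H2-K1 the start used is the outer end of its GENCODE gene (34000347). Both printed H2-D1 stretches instead lie inside the H2-D1 gene, in an exon of one of its GENCODE transcripts. The offset depends on the starts used and does not show a different layout of the promoters. GGGNNTTCC occurred in 5.82% of the 32851 promoters in the table, TGACGC in 7.40% and GAANNGAAA in 7.52%, and among the 7 members only H2-K1 and H2-D1 had them. B2m held the other forms, GAAANNGAA (8.56% of all promoters) and GGANTTTCC (1.25%). CCAAT was found in 6 of 7 members, all but Psmb8, and in 37.4% of all promoters. TATAAA was in B2m, H2-K1, H2-D1 and Psmb8 (13.6% of all promoters), while GGGCGG was in Tapbp, Psmb9 and Tap1 (35.7%). The TATAAA positions from the start were unlike, -26 in H2-D1, 36 in H2-K1, -237 in Psmb8 and, on the opposite strand, -152 in B2m. Those of H2-D1 and H2-K1 are displaced in the same direction as their shared block, so their difference also depends on the starts used. The Tap1 and Psmb9 genes are transcribed away from each other from starts 226 bases apart, so that their promoter windows share 275 bases. Their CCAAT matches are the same site in these bases, and so are their GC box matches, so each site is counted for both genes. A match is a description of the sequence and not a measured binding site.

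In GRCm38 (GENCODE M21), 7 of the 9 genes lie in the MHC on chromosome 17. From one end these are Tapbp (33915899 to 33929292, plus strand), H2-K1 (33996017 to 34000347, minus), Psmb9 (34181987 to 34187764, minus), Tap1 (34187553 to 34197225, plus), Psmb8 (34197721 to 34201454, plus), Tap2 (34203527 to 34216321, plus) and H2-D1 (35262730 to 35267499, plus). B2m lies on chromosome 2 (122147686 to 122153083, plus strand) and Nlrc5 on chromosome 8 (94434356 to 94527272, plus strand). Tap1 and Psmb9 share 212 exonic bases on opposite strands and were one locus in the deposited table, as were Psmb8 and Tap2. Whether the authors counted reads by strand is not given in the sources used here, so reads from such shared bases may have been split between partners.

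The 9 genes covered a wide range of levels, and their order was the same in both groups. FPKM is a level per length, so genes can be compared within a group. Where a pair of values is given, the first is that of HSF V30M. B2m, the light chain of every class I molecule, had the highest level, with an FPKM of 324 in HSF V30M against 415 in HSF WT. The heavy chain H2-K1 followed with 244 and 339, and H2-D1 with 183 and 249. Thus the 3 genes of the presenting molecule itself exceeded 96.9% to 98.3% of the 15620 genes averaging at least 1 FPKM. Tapbp, the loading chaperone, had 120.4 in HSF V30M against 75.2 in HSF WT. The immunoproteasome subunit Psmb8 had 29.8 and 33.3, and the transporter subunit Tap2 had 19.8 and 18.6. Loading and peptide supply genes were therefore present at lower levels than the presenting molecule. The lowest were Tap1 (10.2 and 16.6), Psmb9 (8.34 and 12.5) and the transactivator Nlrc5 (5.91 and 8.33), and the Nlrc5 level exceeded 39.8% of genes in HSF V30M against 48.7% in HSF WT. With pooled values, whether neighbours in this order differ beyond the spread between mice is not known.

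**Figure D1:**
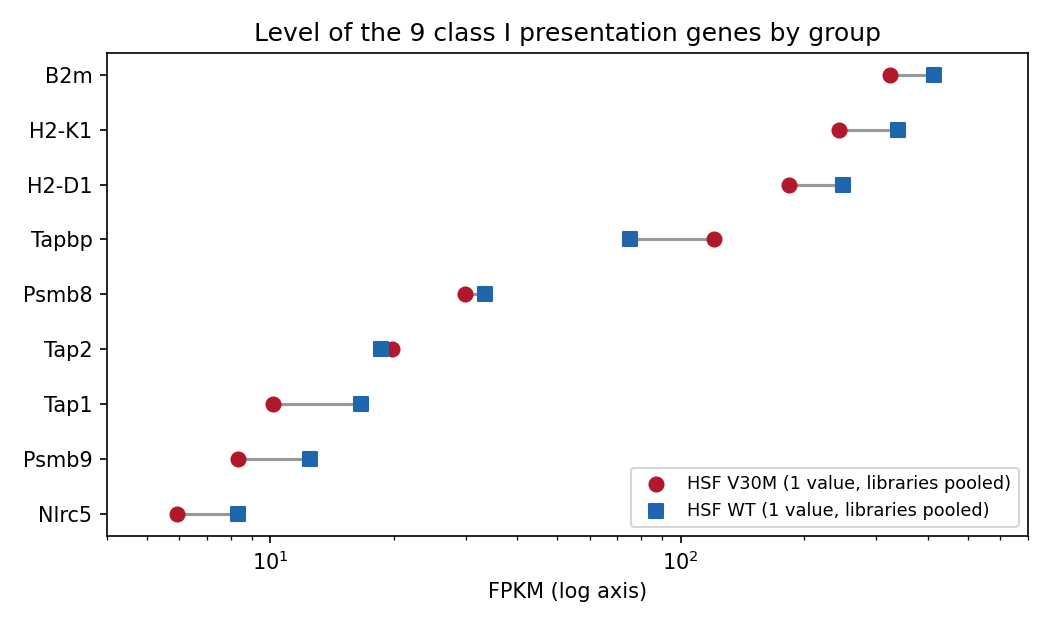
FPKM (log axis) of each of the 9 class I presentation genes, with 1 point per group, HSF V30M as circles and HSF WT as squares, each pooled over the libraries of the group. From B2m (324 and 415) at the top to Nlrc5 (5.91 and 8.33) at the bottom the order is the same in both groups, and the circle lies left of the square in 7 of 9 genes.

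The genes of the presenting molecule had lower values in the group labelled HSF V30M, and by similar amounts. H2-K1 was at 0.719 of its HSF WT level (95% interval for counting error 0.676 to 0.766), which is a log2 ratio of -0.47. Here and below, log2 ratios are HSF V30M over HSF WT after adding 1 to each FPKM. H2-D1 was at 0.736 (0.712 to 0.760), with a log2 ratio of -0.44. The light chain B2m was at 0.781 (0.749 to 0.815), with a log2 ratio of -0.36. These values rest on many fragments, 4631 to 5463 for B2m in HSF V30M against 4224 to 5689 in HSF WT, so counting error is small, but the intervals cover nothing of the variation between mice. In a bulk nerve sample, fewer cells that express a gene and less RNA of it per cell cannot be told apart. As the chains differed by like amounts, the summed heavy chains over B2m came to 1.32 in HSF V30M against 1.42 in HSF WT, and H2-K1 over H2-D1 to 1.33 and 1.36. Heavy chain genes are near copies of each other in part. Of the longest coding transcripts, 8.79% of H2-K1 and 14.3% of H2-D1 lay in stretches of 50 bases also found in another gene, and none of B2m did. Class I heavy chains also vary between strains, and what aligning 129S1/SvImJ reads to the C57BL/6J genome did to their levels was not tested.

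The immunoproteasome subunits replace constitutive catalytic subunits and change which peptides are cut. Psmb8, which takes the place of Psmb5, was at 0.893 (0.809 to 0.985) of its HSF WT level, from 920 to 1086 fragments in HSF V30M against 734 to 989 in HSF WT. Psmb9, which takes the place of Psmb6, was at 0.666 (0.549 to 0.809), from only 208 to 245 and 222 to 299 fragments. The Psmb9 value lies at the fold of 1.5 used for calls and did not pass it once 1 was added to each FPKM (log2 ratio -0.53, against -0.16 for Psmb8). Relative to their constitutive counterparts, Psmb8 over Psmb5 was 4.05 in HSF V30M against 3.58 in HSF WT, and Psmb9 over Psmb6 was 0.106 and 0.151. The first ratio was 1.13-fold higher in HSF V30M and the second 1.43-fold higher in HSF WT. The Psmb8 fold of 0.893 lies inside the counting interval of the Psmb5 fold (0.548 to 1.14), so at this depth the first pair was not distinguishable. Of the longest coding transcript of Psmb9, 12.5% is shared with Tap1.

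The transporter subunits had unlike ratios. Tap1 was at 0.611 (0.543 to 0.687) of its HSF WT level, or 1.64-fold higher in HSF WT, with a log2 ratio of -0.66. This was the member with the lowest ratio and the only one called lower in HSF V30M. Tap2, its partner in the heterodimer, was at 1.06 (0.978 to 1.16), with 1387 to 1636 fragments in HSF V30M against 928 to 1250 in HSF WT, an interval that includes equality. The ratio of Tap1 to Tap2 was accordingly 0.514 in HSF V30M against 0.894 in HSF WT, a difference of 1.74-fold. Tap1 and Psmb9, which share the interval shown above and overlapping exons, were in similar proportion in both groups, with Psmb9 over Tap1 at 0.822 and 0.754.

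Tapbp had the highest ratio of the 9 genes. Tapasin holds the empty class I molecule at the transporter and edits the peptide it receives. Its FPKM was 1.60-fold (1.53 to 1.67) higher in the group labelled HSF V30M, with a log2 ratio of 0.67, from 6224 to 8292 fragments against 2770 to 4213. It was the only member called higher. Tapbp over the summed heavy chains was 0.282 in HSF V30M against 0.128 in HSF WT, 2.2-fold apart, and Tapbp over Tap1 was 11.9 and 4.53, 2.62-fold apart. The Tapbp locus is shared with Gm19412, on the opposite strand, and with Zbtb22. Gm19412 shares 904 exonic bases with Tapbp and had an FPKM of 1.81 in HSF V30M against 1.97 in HSF WT, whereas Zbtb22 shares 149 and had 18.0 and 14.9. How reads of the shared bases were assigned was not tested.

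Nlrc5, which is recruited to the promoters of class I genes, was at 0.710 (0.579 to 0.870) of its HSF WT level, a log2 ratio of -0.43. Its fragment number is known only loosely, 195 to 1113 in HSF V30M against 195 to 1276 in HSF WT, because its coding transcripts range from 1721 to 7578 bases. With 1 value in each of 2 groups, no likeness of pattern between genes can be measured, and none is given for Nlrc5 and the genes it regulates.

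**Figure D2:**
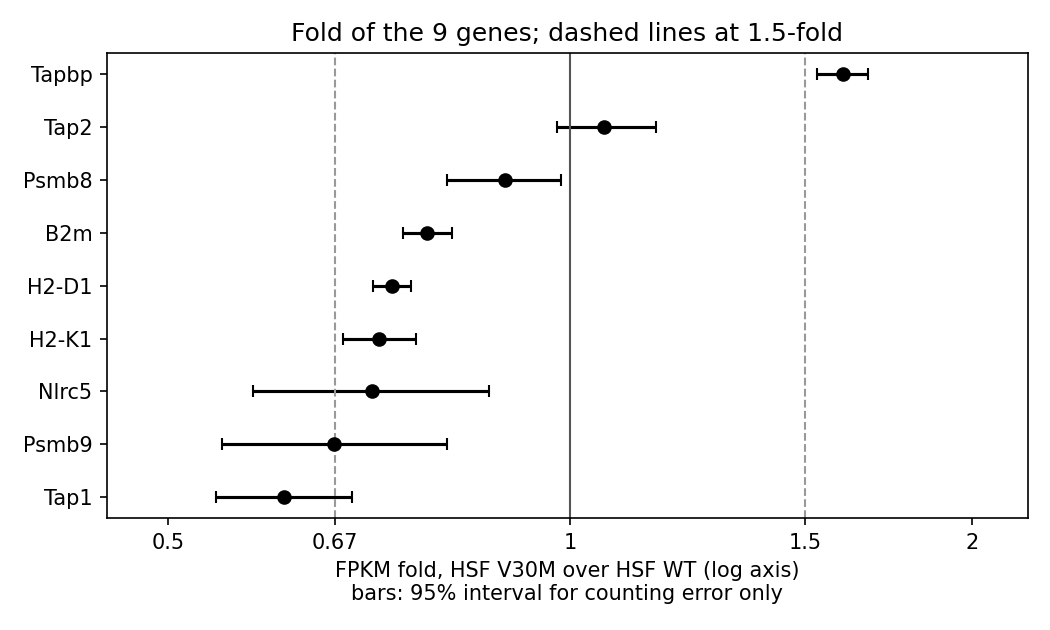
FPKM fold of HSF V30M over HSF WT (log axis) for each gene, with bars for the 95% interval from counting error alone and dashed lines at a fold of 1.5 either way. Tapbp (1.60) lies beyond the right line, Tap1 (0.611) beyond the left and Psmb9 (0.666) on it, and the bar of Tap2 (0.978 to 1.16) crosses 1.

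Set against the transcriptome, the 9 genes lay to the HSF WT side. The log2 ratio was below 0 in 7 of 9 (77.8%), and in 49.6% of the 15620 genes averaging at least 1 FPKM. Their median was -0.43, where the median of all these genes was 0.00 and the middle of the distribution ran from -0.22 (25% of genes below) to 0.23 (75% of genes below). Below the lower of these points lay 6 members, H2-K1, H2-D1, B2m, Tap1, Psmb9 and Nlrc5, and above the upper lay Tapbp. Genes with a lower ratio than Tap1 made up 7.20% of all, those with a lower ratio than B2m 16.1%, and those with a lower ratio than Tapbp 93.3%. By a fold over 1.5 on FPKM + 1, 1 member was higher and 1 lower (2 lower if 1 is not added, with Psmb9), and across all genes 8.22% were higher and 8.44% lower. With 9 members, 1 gene either way is too few to be set apart from these shares. All 9 members have a mean FPKM of at least 5, and among the 10205 genes with that mean 7.17% were higher, 6.33% lower and 49.1% below 0. The members belong to one pathway and mostly one locus, and they are not independent replicates of a difference.

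**Figure D3:**
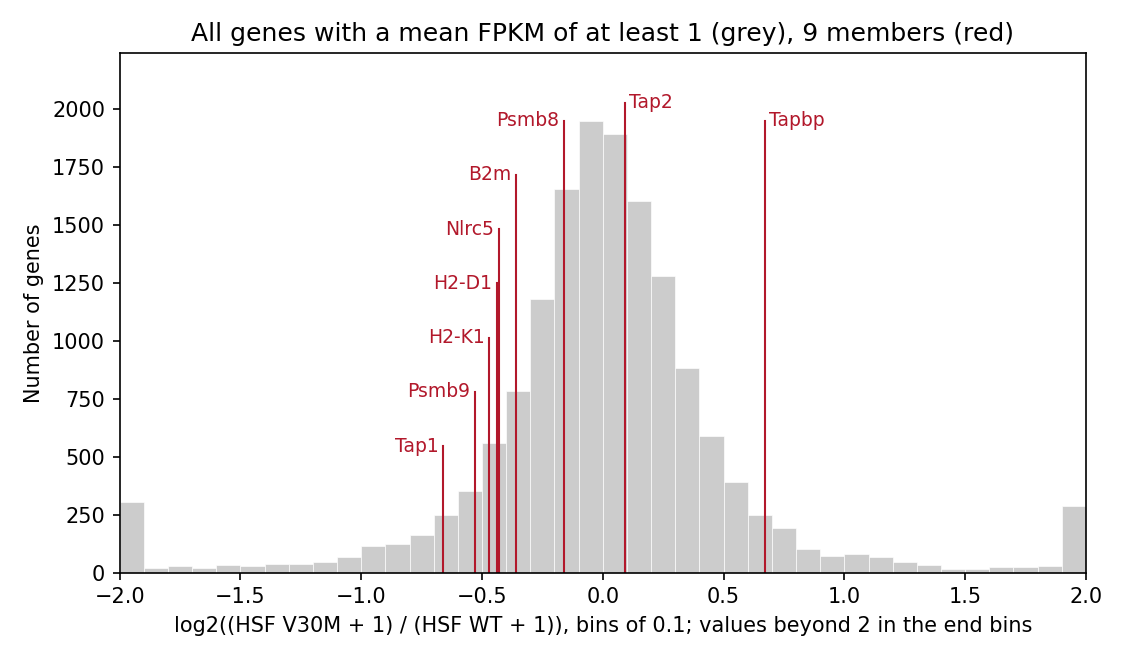
Number of genes by log2 ratio (HSF V30M over HSF WT), in bins of 0.1, for the 15620 genes averaging at least 1 FPKM, with the 561 genes beyond 2 on either side in the end bins. Red lines mark the 9 members and their heights carry no value. Tap1 (-0.66) to B2m (-0.36) stand left of the centre, and Tapbp (0.67) stands right of it.

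Of 56 further genes of the pathway, 52 had a mean FPKM of at least 1, of which 38 (73.1%) were below 0 and 14 above, with a median log2 ratio of -0.16. Past the fold of 1.5 were 1 higher and 5 lower genes. Across all genes with that mean, 49.6% were below 0, 8.22% higher past the fold and 8.44% lower. The count of lower genes is near its share over all genes, and that of higher genes is below its share. Genes past the fold named below are described singly. Among the proteasome genes, 6 of 7 were below 0 (median -0.22). The third immunoproteasome subunit Psmb10 had 20.5 in HSF V30M against 26.8 in HSF WT, a log2 ratio of -0.37. The constitutive subunits Psmb5 (7.35 and 9.33), Psmb6 (78.8 and 82.8) and Psmb7 (29.4 and 34.3) had log2 ratios of -0.31, -0.07 and -0.22. The exception was Psme2, the beta subunit of the PA28 activator that opens the proteasome, with 74.8 and 47.2 and a log2 ratio of 0.65. However, 59.3% of its longest coding transcript is shared with the near copy Psme2b, and its value is uncertain for that reason.

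The other class I heavy chains resembled H2-K1 and H2-D1 in direction, with 7 of the 9 measured at a mean of at least 1 below 0 and a median of -0.27. H2-Q7 (16.1 in HSF V30M against 27.2 in HSF WT, log2 ratio -0.72) and H2-Q6 (16.3 and 26.7, -0.68), which encode Qa-2 antigens, passed the fold. H2-Q4 (26.9 and 40.1, -0.56) and H2-T23 (42.2 and 51.2, -0.27), the latter encoding the Qa-1 ligand of NKG2 receptors, did not. H2-Q10, a secreted class I molecule, was on the other side with 10.98 and 8.82 and a log2 ratio of 0.29. Of the Q genes, 39.2% of H2-Q4, 35.0% of H2-Q6 and 34.9% of H2-Q7 are shared with other genes in stretches of 50 bases. H2-Q7 shares 19.3% with H2-Q6 and 8.34% with H2-D1. How reads were divided among these genes and H2-D1 is therefore uncertain. Whether their likeness in direction rests in part on shared reads was not tested.

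The ER loading and trimming genes had a median of -0.12 (5 of 7 below 0), and no gene of this role passed the fold. The class I-like receptors had a median of -0.08, with 1 of 4 past the fold. This was Cd1d1, which presents lipids to NKT cells, with 14.6 and 24.4 and a log2 ratio of -0.70. All 3 genes of the class II and endosomal role were below 0 (median -0.27), and the cathepsin S gene Ctss, whose product trims the invariant chain of class II molecules, passed the fold with 44.4 and 68.2 (log2 ratio -0.61). By contrast the 16 transcription factors lay on both sides, with 7 above 0, 9 below and a median of 0.00. Only Irf8, a factor of macrophages, dendritic cells and B cells, passed the fold among them, with 7.25 in HSF V30M against 14.7 in HSF WT (log2 ratio -0.92). Of the interferon receptor and kinase genes with a mean of at least 1, 5 of 6 were below 0 and none passed the fold (median -0.16).

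**Figure D4:**
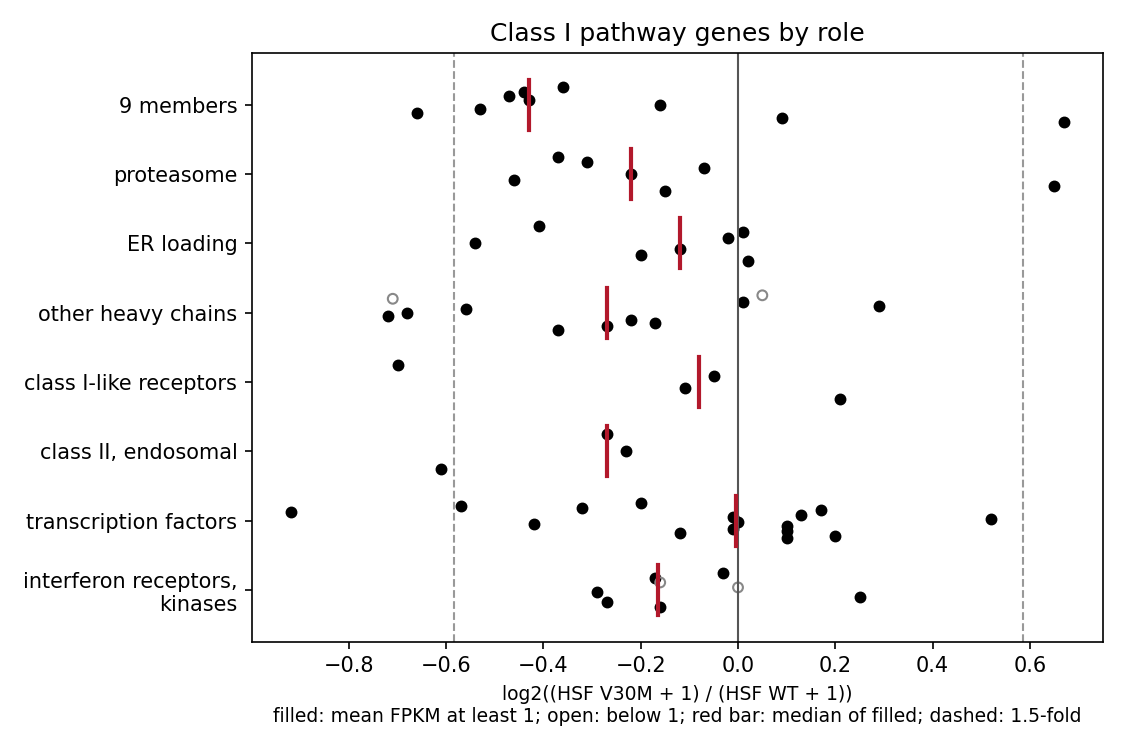
Log2 ratio (HSF V30M over HSF WT) for the 9 members and the 56 further pathway genes by role, with 1 point per gene (filled for a mean FPKM of at least 1, open below it), red bars for the median of the filled points and dashed lines at a fold of 1.5. The members have a median of -0.43, and the transcription factors centre on 0.00.

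Markers of the cells that a nerve sample can hold also differed in level between the groups. Schwann cell markers had a median log2 ratio of 0.16, with 5 genes above 0 (1 of them past the fold) and 4 below. Their summed FPKM was 12900 in HSF V30M against 11300 in HSF WT. Endothelial markers had a median of 0.11 with 3 above and 3 below (summed 209 and 171), and the tight junction gene Cldn5, the only one of them past the fold, had 100.2 and 57.9. Fibroblast markers had a median of -0.07 with 3 above and 3 below (summed 2020 in either group), with the decorin gene Dcn at 1331 and 1320. Dpt, the only fibroblast marker past the fold, had 33.7 and 64.7. These 3 lists were thus divided in direction. Macrophage markers were below 0 in 6 of 8 genes with a median of -0.45 (summed 403 and 604), and the lysozyme gene Lyz2 had 194 and 266. The pan-leukocyte list was below 0 in 4 of 5 genes with a median of -0.32 (summed 67.4 and 96.2), although Coro1a, its gene of the highest level, had 26.8 and 26.0. Dendritic cell markers had a median of -0.24 over the 4 of 7 with a mean of at least 1, or -0.17 over all 7 (summed 12.6 and 17.4), with Zbtb46 at 5.60 and 7.63.

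The largest differences were in lymphocyte and muscle markers. The 8 B cell markers had log2 ratios from -2.42 to -0.68 and a median of -1.43, and their summed FPKM was 4.05 and 32.5. Over the 5 with a mean of at least 1 the median was -2.07, but 4 of these reached that mean only through HSF WT, so they had to be lower in HSF V30M. Their gene of the highest level, Cd22, had 1.26 and 8.49. The 8 T cell markers had log2 ratios from -1.68 to 0.02 and a median of -0.93, with summed values of 3.74 and 16.2, and Cd2 had 1.22 and 4.58. The median over the 4 with that mean was -1.40, of which 3 reached it only through HSF WT, and the other 4 had log2 ratios from -0.54 to 0.02. No B or T cell marker was at 0. None of 7 NK cell markers reached a mean of 1. Nkg7 had 0.34 and 0.598, Ncr1 was at 0 in both groups, where 3 fragments would have given 0.110 in HSF V30M against 0.154 in HSF WT, and Gzmb was at 0 in HSF V30M, where they would have given 0.112. Skeletal muscle markers had a median of -2.03 (5 of 5 called lower, summed 38.6 and 143, Ckm at 8.97 and 43.8). Adipocyte markers had a median of -0.64 (3 of 5 called lower, summed 1130 and 1730, Fabp4 at 462 and 722). The leukocyte, muscle and adipocyte lists were lower along with most of the class I genes, and their part in the class I values was not tested.

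**Figure D5:**
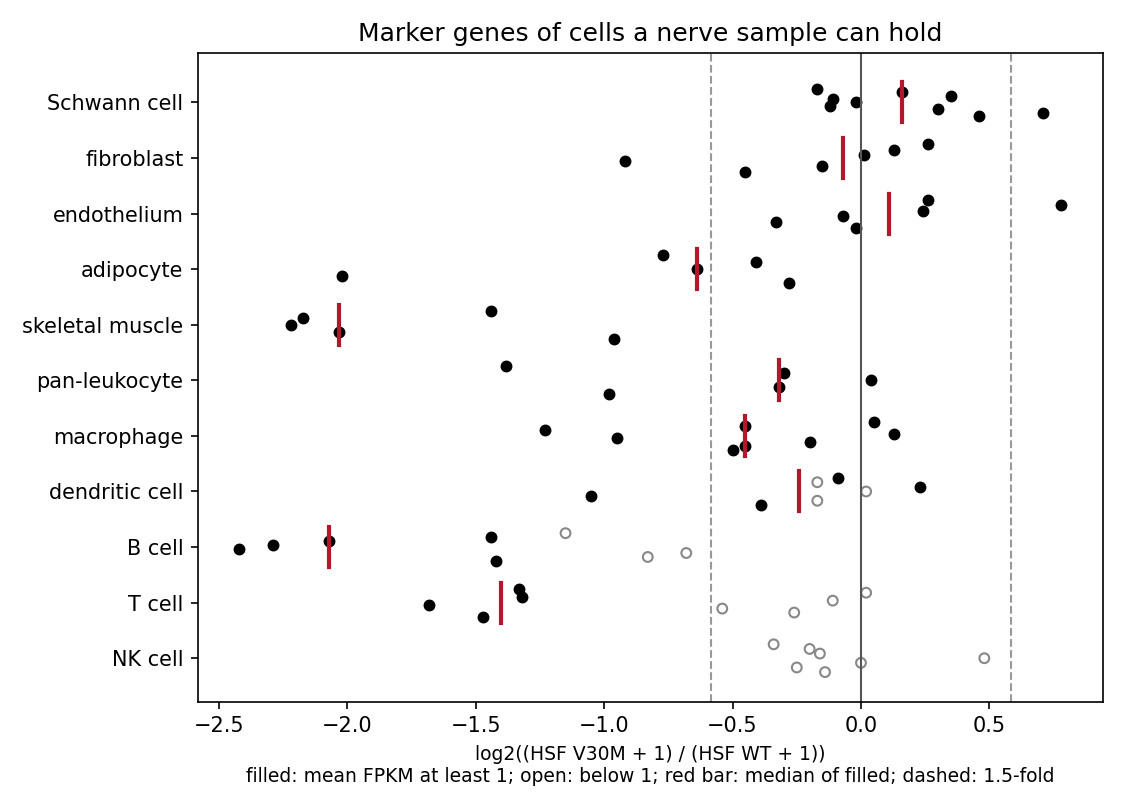
Log2 ratio (HSF V30M over HSF WT) for marker genes of each cell type, with 1 point per gene (filled for a mean FPKM of at least 1, open below it), red bars for the median of the filled points and dashed lines at a fold of 1.5. Schwann cell markers centre at 0.16 and macrophage markers at -0.45, whereas the B cell (-2.07), T cell (-1.40) and muscle (-2.03) medians of the filled points lie far to the left. Over all 8 genes, open points included, the B cell median is -1.43 and the T cell median -0.93.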

How the data were processed

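RNA from sciatic nerves was made into Ion Torrent libraries, and the authors aligned all reads to the mouse genome GRCm38, which is based on strain C57BL/6J. The submitters' processing notes list STAR, Cufflinks and Cuffdiff, whose versions, the annotation release and the strand setting are not given in the sources used here. The authors deposited 1 Cuffdiff table with 1 FPKM value per gene and group. It also holds the authors' fold changes, test statistics, p-values and q-values, which were not used. Decimal commas were read as points, and columns were taken by number because the header line is incomplete. The columns of group letters A and G were matched to the sample titles. No column was left unmatched.

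Log2((HSF V30M + 1) / (HSF WT + 1)) was computed for 50570 genes, after 23 genes with too many alignments were removed, and counts were made over those with a mean FPKM of at least 1. A fold over 1.5 on this scale, which understates differences of low genes, was used as the call. No p-value was computed, since there is 1 value per group. The members and all gene lists were chosen with earlier results of these data known. The named genes were the 9 members, the proteasome subunits, heavy chains that can share reads with H2-K1 and H2-D1, pathway genes past the fold, and of each marker list the gene of the highest mean FPKM and markers at 0. The Schwann cell gene that this rule would name is not reported here.

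Depth came from the low values of 17276 genes that have a single transcript and share no locus, using lengths of 350 to 650 bases with 200 bases taken off. For HSF V30M, where the table rounds to 2 decimals, 98.1% of 308 values lay within 5% of whole fragments (worth 0.0392 and 0.0462), and in HSF WT 99.0% of 293 lay within 2% (0.0482 and 0.0648). The 5% bands of both HSF V30M libraries lie close together, so this share is a weak check. In both groups the 2 worths were fitted to the same values, with 2 libraries assumed. Fragment ranges and exact 95% binomial intervals of the fold, from the lower fragment number, cover counting error only. A count of 0 was given the limit of 3 fragments. Of the gene identifiers, 50369 were found in GENCODE M21. Promoters are those of RefSeq, and H2-K1 and H2-D1 windows were aligned locally. Chosen after values or sequences were seen were the role groups, the ratios between members, the depth window, the local alignment, the 50-base stretches and the motif GAANNGAAA. Biopython 1.88, matplotlib 3.10.9, scipy 1.17.1, pandas 2.3.3 and numpy 2.4.6 under Python 3.11.15 were used. The depth reading and the calls were tested on simulated data. Alternatives were a pseudocount of 0.1, no pseudocount, minimum means of 5 or none, median-of-ratios scaling (factors of 0.999 and 1.001), a fold over 2, and the members without H2-K1 and H2-D1.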

Additional observations from a re-analysis of the deposited data

How the results depend on the processing

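No paired analysis was possible because the deposited values are pooled by group. Leaving out a replicate could not be done either, and limma with a replicate block was not run. Of 101 alternatives, 9 moved a value or a count beyond its limit, and 0 reversed a direction. The limit was the counting interval for single members and 1.5 times for counts. List medians have no such interval, and their limit differed between lists and was wide for some. The B cell median, from -2.66 to -1.43 over 4 settings, was not marked as moved. The 0 was largely fixed in advance, because a constant added to both values cannot change the sign of a gene's ratio. Counts had no direction to reverse, and single members were checked for it only where called past the fold. With a fold over 2, 0 members were higher and 0 lower, and 621 of all genes were higher and 616 lower. With genes averaging at least 5 FPKM the counts over all genes were 732 and 646. These settings are stricter by construction. Without a pseudocount, an alternative chosen after seeing the data, 2 members were lower, because Psmb9 joined Tap1 at a fold just over 1.5 (log2 ratio -0.59). The median of the pan-leukocyte markers was -0.65 at a minimum mean of 5, which leaves fewer genes, and that of the T cell markers was -2.39 with a pseudocount of 0.1, which shrinks low values less. Without a minimum mean it was -0.93, and that of the B cell markers was -1.43. The median of the members ranged from -0.44 to -0.36 over 7 settings. The ratios of the single members kept their direction in the 4 settings run for each, which could not have changed it. Those settings differ only in the pseudocount or in scaling by factors very close to 1. The scaling factors were 0.999 for HSF V30M and 1.001 for HSF WT. Depth limits Psmb9, with 208 fragments at the least in HSF V30M, and Nlrc5, whose fragment number depends on the transcript assumed. Variation between mice is unknown for all values.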

Other observations

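The genes in this part were chosen for description after their values were seen. Of the interferon genes, Ifng and Ifnb1 were examined. Ifng was at 0 in both groups, where 3 fragments would have given an FPKM of 0.137 in HSF V30M against 0.193 in HSF WT. Ifnb1 was at 0 in HSF V30M and stood for 1 fragment in HSF WT. Factors downstream of the interferon receptors went both ways. Irf1, a target of interferon gamma and a known activator of class I genes, had an FPKM of 28.8 in HSF V30M against 43.1 in HSF WT (log2 ratio -0.57). Irf7 had 8.63 and 7.56 (0.17), and Irf9 had 17.2 and 15.6 (0.13).

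Among genes of the endoplasmic reticulum, the general chaperone Hspa5 had 98.5 in HSF V30M against 143.8 in HSF WT (log2 ratio -0.54), and calreticulin (Calr), a partner of Tapbp in peptide loading, had 117 and 156 (-0.41). The other partners Canx (93.6 and 92.9, log2 ratio 0.01) and Pdia3 (39.3 and 42.8, -0.12) differed less, and so did the tapasin-related gene Tapbpl, with 4.97 and 4.88 (0.02). The heavy chain gene H2-M2 was at 0 in HSF V30M, where 3 fragments would have given 0.126, and at 0.633 in HSF WT, from 11 to 18 fragments.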
